A study of Homo sapiens with 96 samples.

Results

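Cetuximab is a monoclonal antibody that binds the extracellular part of the epidermal growth factor receptor (EGFR) and blocks its ligands. Its effect on gene expression is described here in HaCaT-EGFR, a line made from HaCaT, the immortalized but not transformed human keratinocyte line, by lentiviral transduction of wild-type EGFR under a CMV promoter and puromycin selection. The members are the arrays of HaCaT-EGFR without siRNA that received cetuximab at 100 nM (3 arrays) or the PBS control (2 arrays), so 5 of the 96 arrays of the series. Each array is an Affymetrix U133 Plus 2.0 array of total RNA, taken after about a day of treatment, and its values are log2 signals. The line was also treated with gefitinib at 100 nM and afatinib at 10 nM, both tyrosine kinase inhibitors of the receptor, or transfected with siEGFR or scramble siRNA. Its sister lines carry an empty vector (HaCaT-Mock), activated HRAS (HaCaT-HRAS) or activated PIK3CA (HaCaT-PIK3CA). Of the cetuximab arrays, 2 belong to batch J and 1 to batch M, while both PBS arrays belong to batch J, so batch M holds no PBS array of this line. The sources do not say whether the arrays of a group came from separate cultures, so the p-values reflect the array-to-array spread alone, which can be technical.

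Ligand-bound EGFR signals through RAS and the kinases RAF, MEK and ERK, and through PI3K and AKT. ERK activity turns on a set of early genes, among them transcription factors of the EGR, FOS and PEA3 ETS families and the inhibitors that switch the cascade off again (DUSP phosphatases, Sprouty proteins). In keratinocytes the receptor maintains proliferation and holds back differentiation, and blocking it in skin is known to change keratins, cornified envelope proteins and inflammatory mediators.

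Arrays of the same treatment and batch lay close together. The batch M cetuximab array lay nearly as far from the batch J cetuximab arrays as those lay from the PBS arrays. Across 19775 genes, Pearson's r was 0.997 between the batch J cetuximab arrays and 0.997 between the PBS arrays, against 0.992 and 0.991 between those cetuximab arrays and the one of batch M. Within batch J it was 0.990 to 0.991 between cetuximab and PBS arrays. The difference between the 3′ and 5′ ACTB control probe sets, a measure of how much 5′ sequence the labelled RNA holds, was 1.18 to 1.46 on the log2 scale in the batch J cetuximab and PBS arrays and 0.364 in the batch M array, and its part in the results was not tested. Of the 7 measured keratinocyte markers, 6 rose with cetuximab, KRT5 the most, and 3 of the 7 in batch J alone. None of 8 fibroblast, 6 blood cell or 5 melanocyte markers changed, although another probe set of the fibroblast marker COL1A1, the one with the largest interquartile range, rose by 1.06, and of 6 endothelial markers VWF rose, from 5.44 and 5.16 under PBS to 5.90, 6.06 and 5.98. The part of other cell types in the results was not tested, and in bulk RNA fewer cells of a type and less RNA per cell cannot be told apart.

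The transduced gene was checked first. The EGFR probe set with the highest signal read 10.95 and 11.02 in the PBS arrays of HaCaT-EGFR, and in batch J its mean was 10.98 in both HaCaT-EGFR and HaCaT-Mock. Of 9 EGFR probe sets, the largest differences between HaCaT-EGFR and HaCaT-Mock under PBS were 0.42 (SE 0.16) and 0.41 (SE 0.15), and no EGFR probe set passed the test (limma, adjusted p at least 0.397 over all probe sets). In the same line with siEGFR the probe set of highest signal fell by 1.71 on the log2 scale (SE 0.10, limma, adjusted p = 4.12e-19 over all probe sets), so the probe set responds to loss of the transcript. The study itself reported more EGFR mRNA in HaCaT-EGFR than in HaCaT-Mock by RT-PCR, and more phosphorylated EGFR on Western blots. Which of the probe sets can read the transduced sequence was not tested, so the arrays do not settle whether the line overexpresses EGFR.

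Cetuximab changed the expression of 2734 of 19775 genes, 1562 up and 1172 down (limma with batch as a term, adjusted p under 0.05), which is 13.8% of the genes tested. The rises make up 7.9% and the falls 5.93%. A log2 change of at least 1 was reached by 167 of the genes that rose (0.845% of all genes) and 66 of those that fell (0.334%). The median over all genes was -0.01. With the arrays of batch J alone, in which the control arrays lie, 1759 genes changed, 1009 up and 750 down, and 1690 of them were among the 2734 with the same direction. All 2734 genes had the same sign in batch J, but that contrast shares 4 of the 5 arrays, both PBS arrays included. The shared sign is therefore no independent check on the batches. List counts below rest on both batches where batch J is not named, and several were smaller in batch J alone. Of the genes that the naming rule gives and the text below calls changed, ERBB2, JUND, BAX, BID and HPRT1 missed the threshold in batch J (limma, adjusted p = 0.153, 0.264, 0.0815, 0.193 and 0.0823). Regardless of the test, all cetuximab arrays lay above both PBS arrays for 17.5% of genes and below them for 22%, so a gap between the groups is common by itself. Leaving out 1 PBS array lowered the count to 1385 (without replicate 1) or 1586 (without replicate 2), and a model with the 5 arrays alone and no batch term gave 966.

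The deepest falls were in the immediate targets of ERK signalling. EGR1, an immediate early zinc finger factor, read 6.23, 6.23 and 5.49 in the cetuximab arrays, the last from batch M, and 10.26 and 10.17 in the PBS arrays. The groups lay far apart, and the fall of 4.10 on the log2 scale (SE 0.18, limma, adjusted p = 1.2e-24) was the largest of all genes. In batch J alone EGR1 fell by 3.98. DUSP6, the phosphatase that inactivates ERK, read 6.48, 6.46 and 6.01 with cetuximab and 9.99 and 9.87 with PBS. It fell by 3.51 (SE 0.24, limma, adjusted p = 1.13e-16), and every cetuximab array lay below both PBS arrays. ETV5, a PEA3 ETS factor, read 4.98, 5.24 and 5.08 against 8.19 and 8.03, a fall by 2.99 (SE 0.26, limma, adjusted p = 7.67e-13). FOSL1, the AP-1 subunit FRA1, fell by 2.69 (SE 0.27), from 8.07 and 7.84 to 5.11, 5.48 and 5.60.

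The EGR1 promoter in the RefSeq promoter table (GRCh38.p14, 250 bases before the start) is shown because this gene fell the most. It holds 2 CArG boxes, the letters that serum response factor binds. The capitals mark the box, on the plus strand of chromosome 5.
EGR1, chr5:138465364-138465393: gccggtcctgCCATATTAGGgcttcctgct
EGR1, chr5:138465386-138465415: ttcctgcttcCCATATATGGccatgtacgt
Of 21490 promoters of 15384 genes on the array, 249 hold a CArG box, and the share was 1.22% among promoters of genes that rose and 1.13% among those of genes that fell. The match is a description of letters and not of binding.

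The lists of ERK-induced genes moved unevenly. Of 6 measured PEA3 ETS and EGR factors 4 fell and none rose, with a list median of -1.19 against -0.01 over all genes. ETV4 fell by 1.12 and EGR3 by 1.27, while ETV1 differed by -0.27 and EGR4 by 0.09 and did not pass the test. Of 8 Sprouty, SPRED and MIG6 genes, which code for feedback inhibitors of receptor signalling, 6 fell and none rose (median -0.82). SPRY1 fell by 1.20 and SPRED2 by 0.96. ERRFI1, which codes for MIG6, an inhibitor that binds the EGFR kinase, fell by 0.94 (SE 0.24).

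Of 11 MAP kinase phosphatases 4 fell and 1 rose. DUSP4 fell by 1.71, DUSP5 by 1.06 and DUSP7 by 0.79, all phosphatases known to act on ERK. DUSP10, which acts mainly on JNK and p38, went the other way, from 9.56 in both PBS arrays to 10.33, 10.32 and 10.46 (0.80, SE 0.10, limma, adjusted p = 1.23e-08). AP-1 subunits were divided as well. FOS fell by 1.58 and FOSL1 as above, while FOSL2 rose by 0.54 and JUND by 0.48. JUN, with -0.20, and JUNB, with 0.21, did not pass the test. Among 16 other ERK-induced genes 6 fell and 1 rose, and in batch J alone 5 fell and none rose. IER3, a stress-response gene, fell by 1.82, NT5E, which codes for the surface nucleotidase CD73, by 2.19, PHLDA1 by 1.33 and MYC by 0.77. CCND1, the G1 cyclin, differed by 0.04 (SE 0.13).

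**Figure D1:**
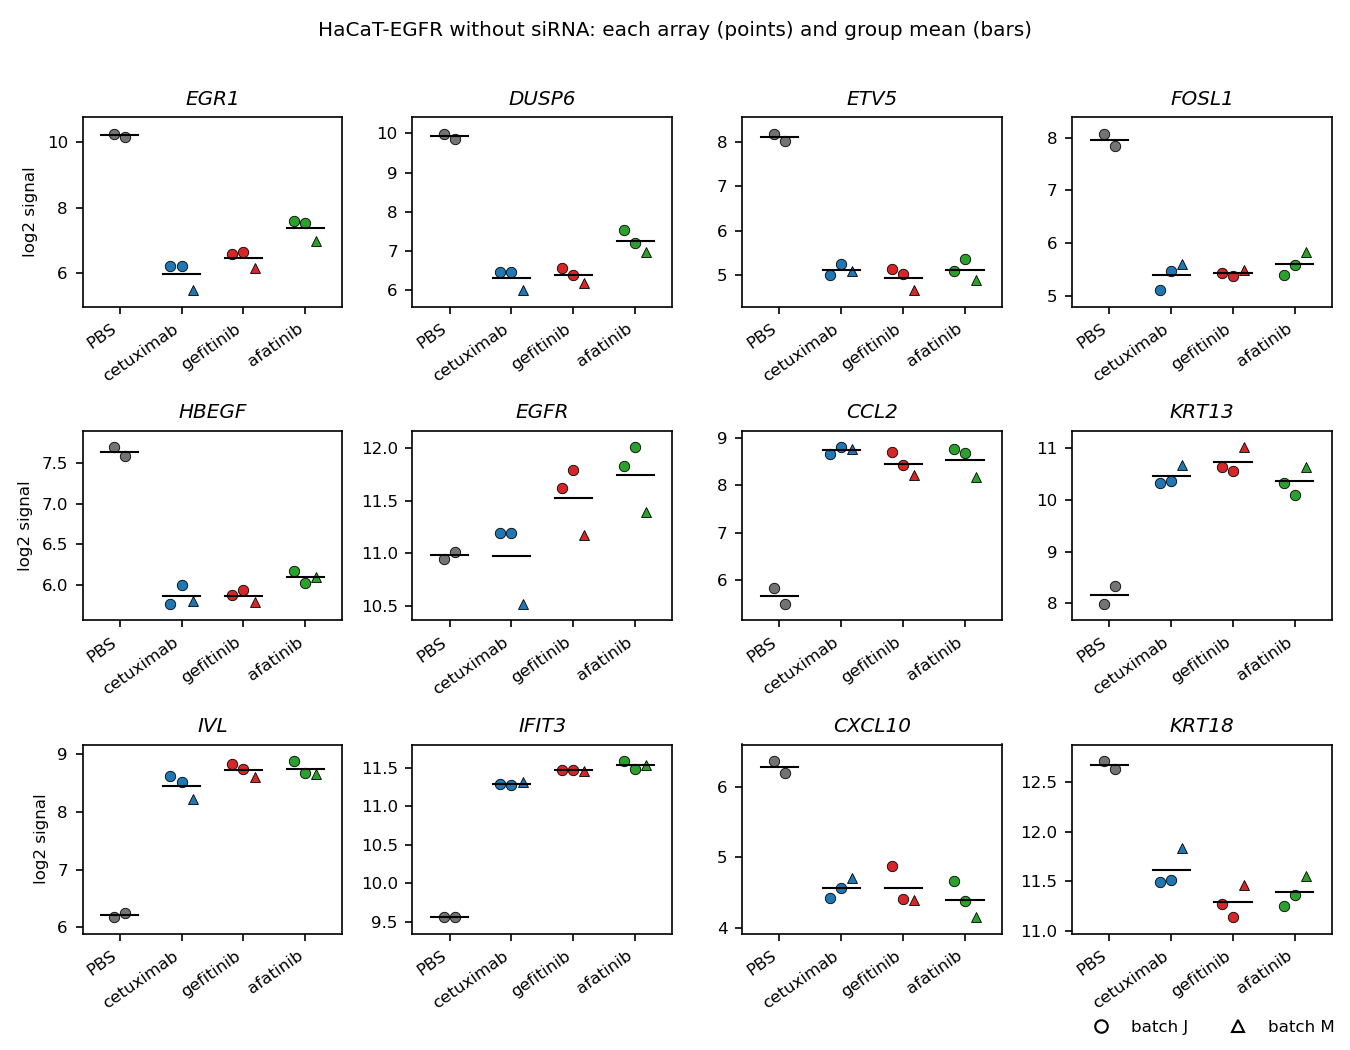
Log2 signal of 12 genes (y axis) in each HaCaT-EGFR array without siRNA, by treatment (x axis: PBS, cetuximab, gefitinib and afatinib), with circles for batch J, triangles for batch M and bars for the group means, the PBS mean resting on batch J only. EGR1, DUSP6, ETV5, FOSL1, HBEGF, CXCL10 and KRT18 lie lower and CCL2, KRT13, IVL and IFIT3 higher in every cetuximab array than in both PBS arrays, while the EGFR arrays overlap.

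Receptors and ligands of the ERBB family were changed in part. EGFR itself read 11.20, 11.20 and 10.52 with cetuximab, the last in batch M, against 10.95 and 11.02 with PBS. The difference of 0.20 (SE 0.11, limma, adjusted p = 0.279) did not pass the test, and in batch J it was 0.22. The other 8 EGFR probe sets differed by -0.14 to 0.24. ERBB3, which pairs with ERBB2 to signal to PI3K, rose from 8.16 and 8.17 to 8.62, 8.71 and 8.58 (0.51, SE 0.09, limma, adjusted p = 1.44e-05). ERBB2, the partner receptor without a known ligand, rose by 0.32 (SE 0.11, limma, adjusted p = 0.03), although its probe set with the largest interquartile range gave -0.08, and ERBB4 differed by 0.05.

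Of 9 measured ligands 3 fell and none rose. HBEGF, the heparin-binding ligand of EGFR and ERBB4, read 5.76, 6.0 and 5.80 against 7.70 and 7.59, a fall by 1.81 (SE 0.12, limma, adjusted p = 4.24e-17). NRG1, the neuregulin that binds ERBB3 and ERBB4, fell by 1.32 (SE 0.14), and EREG, epiregulin, by 1.06 (SE 0.27). TGFA, a ligand that keratinocytes make for themselves, differed by -0.04 (SE 0.14), and EGF by 0.02. AREG, amphiregulin, is not among the 9 measured ligands. Of 12 regulators of receptor turnover, CBLB (0.47) and LRIG2 (0.36) rose and ERRFI1 fell.

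The AP-2 transcription factors and the targets named by the study, which chose those targets on this series, gave small changes. TFAP2A, which codes for AP-2alpha, read 10.15, 10.15 and 10.08 against 9.74 and 9.80, and its rise of 0.40 (SE 0.06, limma, adjusted p = 5.52e-06) separated the groups. TFAP2B, at a low level, fell by 0.44, and TFAP2C differed by -0.02. Of 5 measured targets named as rising, IGF1R (0.36) and ERBB2 rose, while BMP2 with 0.30, BMP4 with 0.24 and EGFR did not pass the test. Of 4 named as falling, VEGFA, the vascular growth factor, fell by 0.99 (SE 0.14) and TGFBR3 by 0.60, and FGFR4 with -0.37 and TGFA did not pass.

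Among keratins, junction genes and differentiation factors more members rose than fell. KRT13, a keratin of mucosal suprabasal layers, read 10.33, 10.36 and 10.68 with cetuximab and 7.99 and 8.35 with PBS (2.19, SE 0.35, limma, adjusted p = 5.38e-06). Its partner KRT4 rose by 2.94 (SE 0.34), and KRT1, the epidermal suprabasal keratin, by 1.63. Of 10 suprabasal and mucosal keratins 5 rose and none fell. Basal keratins were higher too, KRT5 by 1.23, KRT15 by 1.62 and KRT14 by 0.68, whereas KRT8 and KRT18, the pair of simple epithelia, fell by 0.48 and 1.12. VIM, vimentin, fell by 1.12 from 8.19 and 8.17 to 7.07, 7.18 and 6.87.

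IVL, involucrin, a precursor of the cornified envelope, read 8.62, 8.51 and 8.23 against 6.18 and 6.25 (2.31, SE 0.20, limma, adjusted p = 7.92e-13). Of 28 cornified envelope genes 5 rose and none fell, with a list median of -0.02, so the rise was limited to a few members: IVL, RPTN (2.35), SCEL (2.02), TGM1 (1.66), which codes for the cross-linking transglutaminase, and PPL (0.53). In batch J alone 5 cornified envelope genes rose and 1 fell. FLG, filaggrin, differed by -0.38 and SPRR1B by 0.36, and neither passed the test. Of 16 differentiation factors 8 rose and none fell, ELF3 by 1.82, ZNF750 by 1.22, GRHL3 by 1.08 and GATA3 by 0.55. KLF4, with 0.22, did not pass the test.

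The AP-1 site, searched as TGANTCA on both strands, stands in 14 of 27 promoters of the cornified envelope genes (51.9%) against 5.37% of all 21490 promoters. The list was chosen by gene function, so its share says nothing about cetuximab. Among promoters of genes that rose the share was 5.99%, and among those of genes that fell 5.58%. The stretch of IVL, on the plus strand of chromosome 1 (GRCh38.p14, RefSeq), is shown because IVL had the lowest adjusted p of the cornified genes, with the site in capitals.
IVL, chr1:152908412-152908441: gatgcctgtggTGAGTCAggaaggggttag
The AP-1 subunits themselves moved both ways, and no binding was measured.

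Of 19 junction genes 12 rose and none fell, with a median of 0.62. OCLN, occludin of tight junctions, rose by 0.82, DSC2, a desmosomal cadherin, by 0.78, and PKP1, a desmosomal plaque protein, by 1.06. Basal adhesion genes, which anchor keratinocytes to the basement membrane, were divided. Of 13, ITGAV, an integrin subunit, rose by 1.08, while the integrin subunit ITGB5 fell by 0.80 and DST, a hemidesmosome protein, by 0.80, the latter with 0.19 for the probe set chosen by the rule of the study. Of 9 kallikreins, serine proteases of which several act in shedding of the outer skin, 5 rose, KLK10 by 1.36 and KLK7 by 1.25. Of 16 Notch pathway genes 3 rose and 1 fell, NOTCH1 rising by 0.72 and HEY1, a Notch target, falling from 6.62 and 6.55 to between 4.91 and 5.02. Of 24 TGF-beta and BMP genes 6 rose and 6 fell. ID1, ID2 and ID3, inhibitors of basic helix-loop-helix factors, rose by 1.34, 1.57 and 1.46, while INHBA, an activin subunit, fell by 0.73 and the ligand TGFB1 by 0.70.

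Interferon-stimulated genes rose as a group. Of 40 measured, 26 rose and none fell, a share to be read beside the 7.9% of all genes that rose, and the list median was 0.62. IFIT3 read 11.29, 11.27 and 11.32 against 9.56 and 9.57, with no overlap and little spread (1.73, SE 0.26, limma, adjusted p = 1.33e-06). GBP2 rose by 1.76, TRIM22 by 1.64, SAMD9L by 1.56 and IFIT1 by 1.09. The factors that carry the interferon signal rose as well, IRF9 by 1.20 and IRF1 by 1.21. ISG15, at 0.44, did not pass the test. In batch J alone 16 of the 40 rose and none fell, with a median of 0.61.

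The interferon-stimulated response element, searched on both strands as GAAA, any 2 bases and GAAA, stands in 25 of 43 promoters of 32 of these genes (58.1%), against 2.55% of all 21490 promoters. The list holds genes known to respond to interferon, so its share says nothing about cetuximab. Among promoters of genes that rose the share was 4.01%, and among those of genes that fell 2.4%. No binding was measured. The stretches of IFIT1, IFIT3 and CXCL10 are shown because the first 2 rose and the last fell. The capitals mark the element, which reads as its reverse complement where it begins with T. IFIT1 and IFIT3 lie on the plus strand of chromosome 10 and CXCL10 on the minus strand of chromosome 4 (GRCh38.p14, RefSeq).
IFIT1, chr10:89392497-89392526: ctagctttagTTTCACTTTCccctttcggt
IFIT3, chr10:89332468-89332497: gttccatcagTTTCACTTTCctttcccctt
CXCL10, chr4:76023699-76023728: tcatgttttgGAAAGTGAAAcctaattcac

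Genes of antigen presentation rose with them. Of 21 MHC genes 12 rose and none fell (median 0.45), and 9 rose in batch J alone. PSMB10 and PSMB9, subunits of the immunoproteasome that cuts peptides for class I molecules, rose by 1.06 and 1.00. HLA-E rose by 0.53 and HLA-B by 0.52, while B2M, the class I light chain, differed by 0.21 and the class II gene HLA-DRA by 0.04, neither past the test.

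The chemokines were divided. CCL2, which attracts monocytes, rose the most of the genes that the naming rule allows, from 5.83 and 5.50 to 8.66, 8.79 and 8.75 (3.15, SE 0.49, limma, adjusted p = 3.85e-06). CCL5 rose by 1.27 and CXCL16 by 0.90. CXCL9, CXCL10 and CXCL11, ligands of the T cell receptor CXCR3 that interferon gamma is known to induce, went against the other interferon-stimulated genes. CXCL10 read 4.43, 4.56 and 4.71 with cetuximab and 6.37 and 6.20 with PBS, a fall by 1.69 (SE 0.22, limma, adjusted p = 6.09e-08). CXCL9 fell by 1.91 (SE 0.17) and CXCL11 by 0.97 (SE 0.18). The interleukin 1 genes IL1A and IL1B fell by 1.57 and 1.26 and the decoy receptor IL1R2 by 2.17, while IL1RN, the receptor antagonist, rose by 0.85.

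Genes of growth fell by smaller amounts. Of 19 ribosome biogenesis genes 13 fell and none rose (median -0.39), NOP16 by 0.66 and NOLC1 by 0.52. In batch J alone 11 of the 19 fell. Of 25 S phase genes 9 fell and none rose (median -0.20), and of 26 genes of G2 and mitosis 5 fell (median -0.21). These counts were 6 and 4 in batch J alone. FEN1, the flap endonuclease, fell by 0.50 and AURKA, a mitotic kinase, by 0.57, while MKI67, with -0.21, did not pass. Of 13 G1 cyclins and CDK inhibitors 4 rose and 1 fell, and in batch J alone 3 rose and none fell. The inhibitors CDKN2B, CDKN1A and CDKN1B rose by 1.54, 0.68 and 0.50. Of 22 glycolysis and hypoxia genes 10 fell and 2 rose (6 and 2 in batch J alone), with BNIP3 falling by 1.30 and HK2, hexokinase, by 0.72. Of 19 FOXO targets 8 rose and 1 fell, TXNIP by 1.03 and PIK3IP1 by 0.99 against TRIB2, which fell by 1.24. Of 10 housekeeping genes HPRT1 fell by 0.29.

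Several further lists were divided or moved by a few members. Of 9 fatty acid synthesis genes 6 rose, SREBF1, the factor that drives them, by 0.67 and SCD, the stearoyl desaturase, by 0.46. Of 18 sterol synthesis genes 4 rose, LSS by 0.66. In batch J alone 4 fatty acid and 3 sterol synthesis genes rose. Of 18 matrix proteases and inhibitors 6 rose and 4 fell. MMP13, a collagenase, rose by 1.77 and MMP7, matrilysin, by 0.63, while the protease inhibitors SERPINE2 and TIMP1 fell by 1.26 and 1.00. TNFSF10, which codes for the death ligand TRAIL, read 8.99, 9.31 and 8.91 against 7.60 and 7.59 (1.59, SE 0.24, limma, adjusted p = 2.12e-06), and its receptors TNFRSF10A and TNFRSF10B fell by 0.76 and 0.55. Of 15 BCL2 family genes BCL2L11 (0.51), BID (0.31) and HRK (0.95), all of which promote cell death, rose, and BAX, which does so too, fell by 0.51. Of 16 S100 and antimicrobial genes 4 rose and 2 fell, and in batch J alone 4 rose and none fell. LCN2, lipocalin 2, was higher by 1.29 and SLPI, a protease inhibitor, by 1.12.

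**Figure D2:**
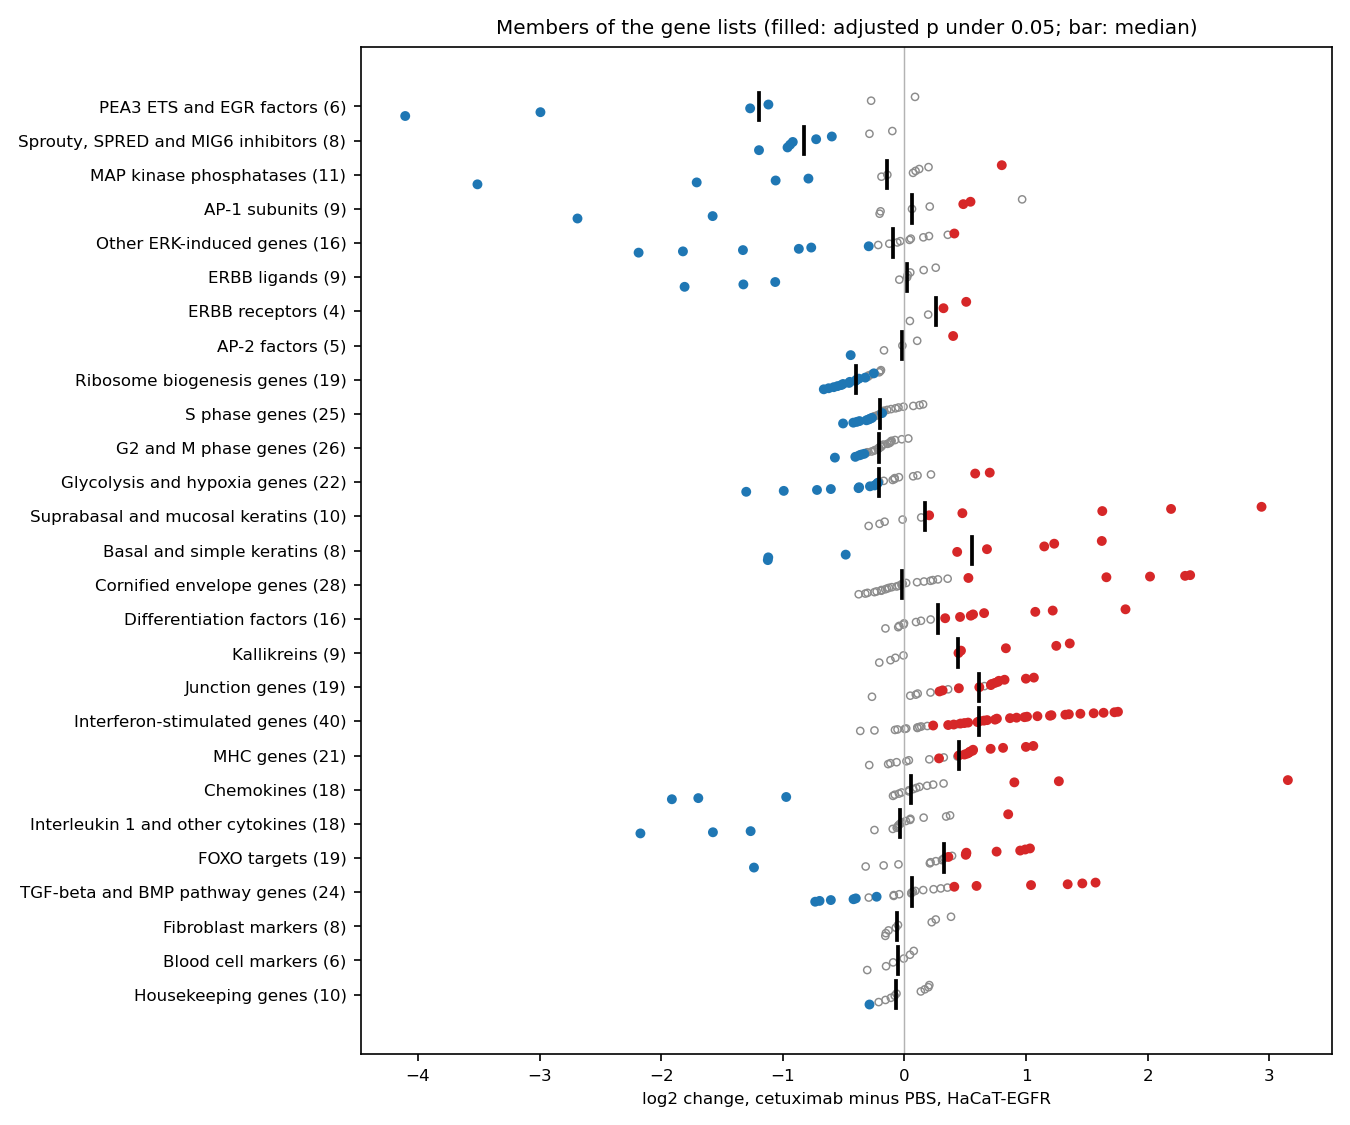
Log2 change with cetuximab against PBS (x axis) for each measured member of 27 gene lists (y axis, number of members in parentheses), with filled points for an adjusted p under 0.05 and a bar at the list median. Feedback inhibitors and PEA3 ETS and EGR factors lie to the left, interferon-stimulated, MHC and junction genes to the right, and chemokines on both sides.

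Other genes with large changes by the naming rule belonged to no list. Among rises CYP4F3, a leukotriene hydroxylase, was higher by 2.56, ALPP, placental alkaline phosphatase, by 2.18, IGFBP3, which binds insulin-like growth factors, by 2.14, STEAP4 by 1.97, TNFAIP2 by 1.94, CCDC80 by 1.90 and IGFL1 by 1.83. Among falls RGCC was lower, from 7.51 and 7.56 to 5.26, 5.51 and 4.58, and XDH, xanthine dehydrogenase, fell by 1.78 and GPAT3, an enzyme of glycerolipid synthesis, by 1.71.

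Whether the response differed between lines was tested as the difference of the responses themselves. Cetuximab changed 2852 genes in HaCaT-Mock, 3495 in HaCaT-PIK3CA and 63 in HaCaT-HRAS (14.4%, 17.7% and 0.319% of the genes tested). The response of HaCaT-EGFR differed from that of HaCaT-HRAS in 429 genes (2.17%), from that of HaCaT-PIK3CA in 9 (0.0455%) and from that of HaCaT-Mock in 5 (0.0253%). At an unadjusted p under 0.05 these counts were 2190, 1123 and 961 of 19775 genes. With no difference at all, a share of 0.05 of the genes would pass that threshold. The counts for HaCaT-PIK3CA and HaCaT-Mock lie near that share. The comparisons share the HaCaT-EGFR arrays.

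The 5 genes that differed from HaCaT-Mock were CXCL9, CXCL10, CXCL11, LGALSL and ELF4, of which CXCL11 is named after its values were seen. CXCL10 fell by 1.69 in HaCaT-EGFR and rose by 0.62 in HaCaT-Mock, a difference of -2.31 (SE 0.29, limma, adjusted p = 1.33e-06). For CXCL9 the difference was -2.55 (SE 0.23) and for CXCL11 -1.58 (SE 0.24). The lines were apart before treatment. CXCL10 had a mean of 6.28 ± 0.12 (SD, n = 2) in the PBS arrays of HaCaT-EGFR against 4.47 ± 0.16 (n = 3) in HaCaT-Mock, 4.49 ± 0.37 (n = 3) in HaCaT-PIK3CA and 4.48 ± 0.16 (n = 3) in HaCaT-HRAS. With cetuximab it was 4.57 ± 0.14 (n = 3) in HaCaT-EGFR, 5.07 ± 0.39 (n = 3) in HaCaT-Mock, 5.12 ± 0.41 (n = 3) in HaCaT-PIK3CA and 4.65 ± 0.23 (n = 3) in HaCaT-HRAS. All of these are low signals, below the median gene mean of 6.10 apart from the PBS arrays of HaCaT-EGFR. The differences from HaCaT-PIK3CA were -2.32 for CXCL10, -2.00 for CXCL9 and -1.44 for CXCL11, and those from HaCaT-HRAS -1.86, -1.77 and -1.11, each past the test.

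ELF4, an ETS factor, rose by 0.95 in HaCaT-EGFR and by 0.40 in HaCaT-Mock (difference 0.55, SE 0.11), and LGALSL, a galectin-like gene, by 0.84 where HaCaT-Mock changed by 0.11 (difference 0.73, SE 0.14). Both calls were lost in batch J alone, without either PBS array and without a batch term. In batch J HaCaT-Mock has 1 cetuximab array, so the batch J comparison rests on 1 treated array of that line. Batch M holds no PBS array of HaCaT-Mock. Falls relative to HaCaT-Mock numbered 3 without either PBS array and 2 in batch J. RPTN, repetin of the cornified envelope, rose by 2.35 against 0.21 in HaCaT-PIK3CA (difference 2.14, SE 0.30). KRT18 fell further than in HaCaT-PIK3CA, by 1.12 against 0.57, a difference of -0.55. The other genes that differed from HaCaT-PIK3CA were LRATD1 (0.95), FYB1 (0.85), NRARP (0.55) and PRUNE2 (1.04), the last named after its values were seen. The genes with a higher response than in HaCaT-PIK3CA numbered 5 in all, 3 in batch J, 2 without PBS replicate 2, 2 without cetuximab replicate 2 and 1 without a batch term. RPTN, KRT18, IFIT3 and EGR1 did not pass the test of a difference from HaCaT-Mock.

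Against HaCaT-HRAS, where 111 genes differed with batch J arrays alone, the response was lower in 3 of 6 PEA3 ETS and EGR factors, 4 of 16 other ERK-induced genes and 1 of 9 AP-1 subunits. It was higher in 6 of 16 differentiation factors, 6 of 19 junction genes and 4 of 28 cornified envelope genes. No member of these lists differed the other way. Over all 19775 genes the response was higher in 301 and lower in 128, and in batch J alone in 72 and 39. The list counts were not taken in batch J alone. The response minus that of HaCaT-HRAS was -2.98 for DUSP6, -2.96 for ETV5, -2.70 for EGR1 and -2.12 for FOSL1. KRT4 (2.82), CYP4F3 (2.68), IVL (2.31) and KRT13 (2.02) rose more. EGR1 itself fell by 1.40 in HaCaT-HRAS.

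**Figure D3:**
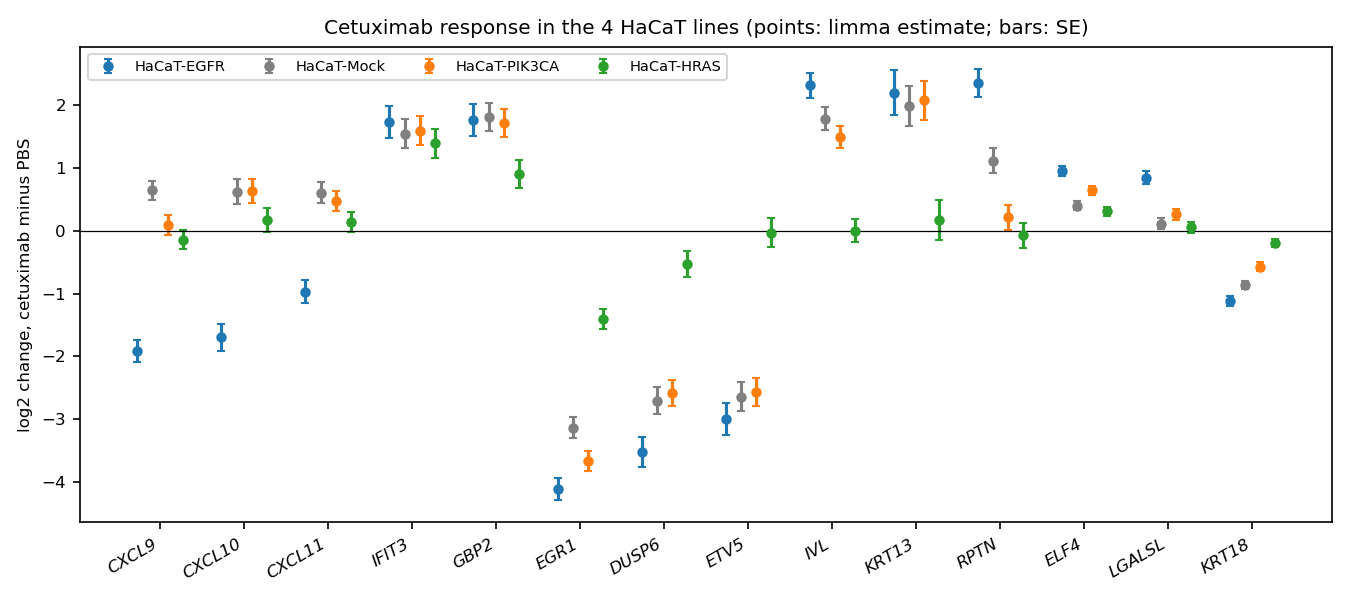
Log2 change with cetuximab against PBS (y axis, limma estimate with SE) for 14 genes (x axis) in the 4 HaCaT lines. CXCL9, CXCL10 and CXCL11 are below 0 in HaCaT-EGFR and between -0.14 and 0.64 in the other lines, and HaCaT-HRAS is nearest 0 for DUSP6, ETV5, IVL and KRT13.

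The contrast was also read on arrays of HaCaT-EGFR that it does not use. Cells with scramble siRNA had 1 array with cetuximab, in batch E, and 2 with PBS, in batches J and E, so the cetuximab arm has no replicate. In a fit that assumes this array to vary like the other groups 1392 genes passed the threshold (7.04%), a count that rests on that assumption. Of the 2734 genes changed without siRNA, 2626 (96.0%) had the same sign, as had all 233 with a log2 change of at least 1. The same share over all genes was not taken. Pearson's r over all genes, between the changes with and without scramble siRNA, was 0.694. Within batch E, 1 array against 1 and so with no replicate check, the sign was the same for 2610 of the 2734.

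On the scramble arrays the estimate was -3.39 for DUSP6, -2.99 for ETV5 and 3.69 for CCL2, beside -3.51, -2.99 and 3.15 without siRNA. It was -2.43 for EGR1, beside -4.10, and for CXCL9 and CXCL10 -0.86 and -0.72, beside -1.91 and -1.69. These are values of 1 treated array, and their differences from the arrays without siRNA were not tested.

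Knockdown of the receptor transcript in the same line, 3 siEGFR against 3 scramble arrays, changed 1871 genes (9.46%), and 725 in batch J alone. Of the 2734 genes changed by cetuximab 2231 (81.6%) had the same sign. The same share over all genes was not taken, and Pearson's r over all genes between the siEGFR and cetuximab changes was 0.485. Of the 792 genes changed in both (29.0% of the 2734 and 42.3% of the 1871), 736 had the same direction. DUSP6 fell by 1.70, FOSL1 by 1.44, CXCL10 by 1.32 and HBEGF by 1.04 with siEGFR, and CYP4F3 and CCL2 rose by 1.73 and 1.70. EGR1, with -0.36, IVL, with 0.39, KRT13, with 0.39, and IFIT3, with 0.35, did not pass the test after siEGFR. Their scramble baseline differed from the PBS arrays without siRNA. KRT13 read 9.90, 9.92 and 10.55 with scramble siRNA against 7.99 and 8.35 with PBS, and IVL 7.10, 6.94 and 7.01 against 6.18 and 6.25. EGR1 read 9.13, 9.09 and 8.64 against 10.26 and 10.17, and IFIT3 9.38, 9.36 and 9.08 against 9.56 and 9.57. The part of this shift in the siEGFR values was not tested.

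**Figure D4:**
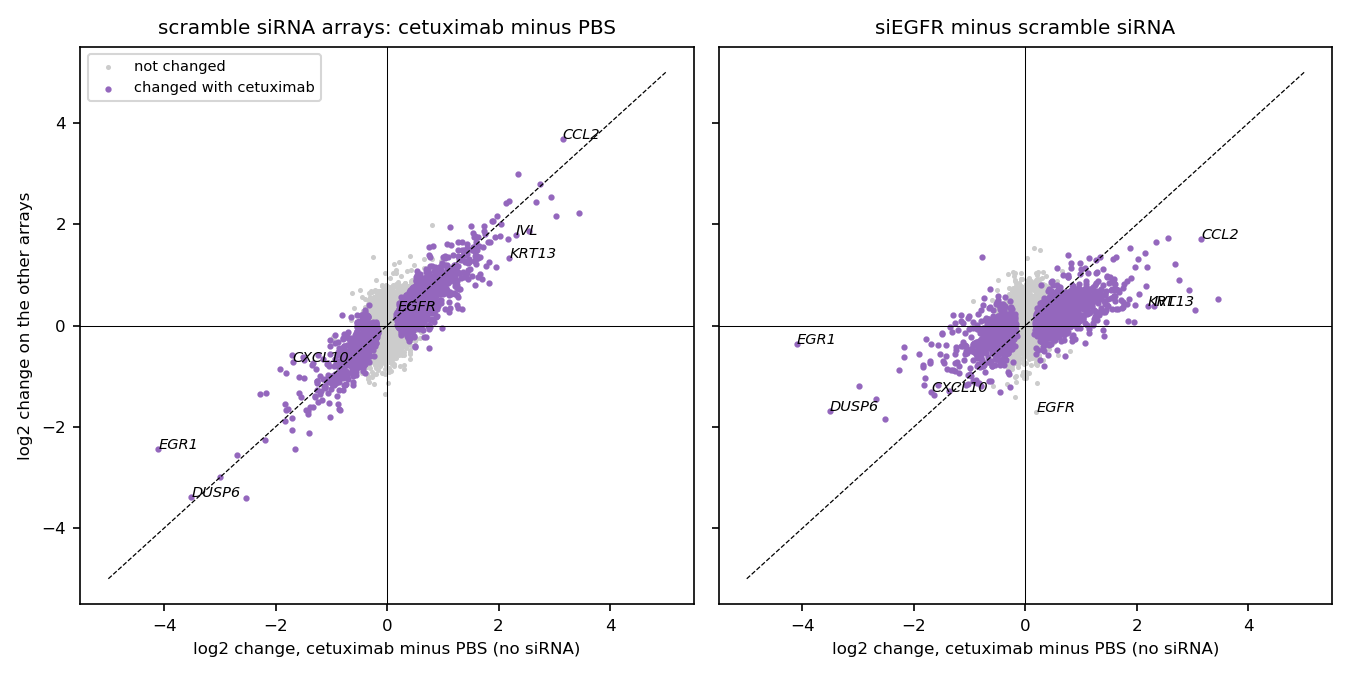
Log2 change with cetuximab without siRNA (x axis) against the change with cetuximab on scramble siRNA arrays (left, y axis) and after siEGFR (right, y axis), each point 1 gene, purple where the change without siRNA passed the test, with a dashed line of equality. Purple points follow the line on the left and lie flatter on the right, where EGR1, IVL and KRT13 are near 0 and EGFR is at -1.71.

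Cetuximab was last compared with the kinase inhibitors in HaCaT-EGFR, 3 arrays each, with 2 of every group in batch J and 1 in batch M. The doses differ for afatinib, and an antibody and a small molecule at equal molar dose need not block the receptor equally, so the values compare these treatments as given. Between cetuximab and gefitinib 668 genes differed (3.38%), 315 higher (1.59%) and 353 lower (1.79%) with cetuximab, of which 7 by a log2 difference of at least 1. In batch J alone 52 genes differed, 13 higher and 39 lower, and leaving out 1 array gave 231 to 455, the fewest without cetuximab replicate 3. Between cetuximab and afatinib 2060 differed (10.4%), 24 of them by at least 1. Of these 1248 were higher with cetuximab (6.31%) and 812 lower (4.11%), a split that quantile normalization turned to 909 and 1072. In batch J alone 379 differed, 199 higher and 180 lower, and 1154 did without cetuximab replicate 3.

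EGFR was lower with cetuximab than with either inhibitor. Its values of 11.20, 11.20 and 10.52 stood against 11.62, 11.79 and 11.18 with gefitinib and 11.83, 12.01 and 11.39 with afatinib, the last of each from batch M, where all 3 treatments were lowest. Within each batch every cetuximab array was below the inhibitor arrays. The differences were -0.56 from gefitinib (limma, adjusted p = 0.000151) and -0.77 from afatinib (4.11e-08). Of the 5 targets named by the study as rising with AP-2alpha, 3 were lower than with gefitinib and 4 lower than with afatinib, EGFR included.

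Of 25 S phase genes 9 were higher with cetuximab than with gefitinib and 19 higher than with afatinib, with none lower, and of 26 genes of G2 and mitosis 1 and 12. Of 18 sterol synthesis genes 6 and 11 were higher, HMGCS1, an early enzyme of the pathway, by 0.73 and 1.03. These list counts rest on both batches and were not taken in batch J alone. There, 13 genes in all were higher and 39 lower with cetuximab than with gefitinib. Of 19 FOXO targets 3 and 8 were lower. FBXO32, a ubiquitin ligase known from muscle wasting, differed by -1.24 and -1.49, and TNFSF10, named above, differed by -1.08 and -1.41. The matrix metalloproteases MMP10 and MMP13 differed by -1.56 and -1.47 from gefitinib and by -1.96 and -1.99 from afatinib.

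The early ERK targets were not uniformly apart. DUSP6 differed by -0.07 from gefitinib, without passing the test, and by -0.93 from afatinib, and EGR1 by -0.49 and -1.39, the second past the test, so both were lower with cetuximab than with afatinib. IFIT3 differed by -0.18 and -0.24 and IVL by -0.27 and -0.29, none past the test. NRG1 was higher with cetuximab by 0.69 and 0.63, and IGFL1 by 1.14 and 1.18.

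**Figure D5:**
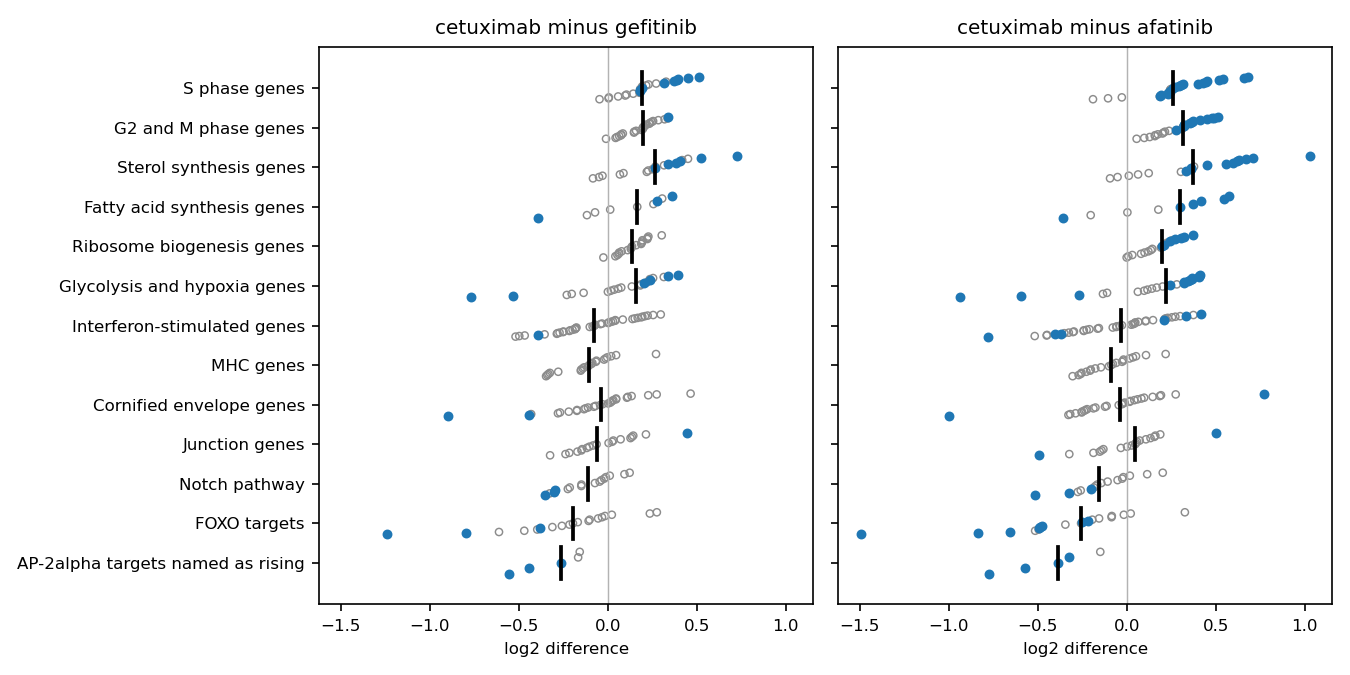
Log2 difference between cetuximab and gefitinib (left) or afatinib (right) in HaCaT-EGFR (x axis) for the members of 13 gene lists (y axis), with filled points for an adjusted p under 0.05 and bars at the list medians. The medians of the S phase (0.19 and 0.26), G2 and mitosis (0.20 and 0.31) and sterol genes (0.27 and 0.37) lie to the right of 0 in both panels and those of the FOXO targets (-0.20 and -0.26) to the left, although against gefitinib 1 of 26 G2 and mitosis genes and 3 of 19 FOXO targets passed the test.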

How the data were processed

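The deposited table holds log2 expression values of 54675 probe sets on 96 arrays. The submitters' processing notes name affy, and the methods of the study name fRMA and pSVA. No source used here says which of them went into these log2 values as deposited, or which labelling kit each array had. Of the probe sets, 41097 carry 1 gene symbol in the platform annotation, 1801 several and 11777 none that was listed, and the probe set with the highest mean stood for each of 19775 genes. limma 3.58.1 (R 4.3.3) was fitted to the 89 HaCaT arrays with group and batch (J, E, M) as terms, 47 residual degrees of freedom, eBayes and Benjamini-Hochberg adjustment over all genes. On simulated data for cetuximab against PBS with 19775 genes, 100 genes were given a log2 change of 1 and 100 a change of 0.5. Of these 98% and 55% were recovered, with 8 false calls. Far more genes, 2734, were called in the real contrast, and the adjusted threshold depends on the number of changed genes. The simulated noise was independent and normal, with the same spread on every array and additive batch terms. The real arrays differ in weight, so these shares need not hold for them. The number of arrays limits the precision. Members and lists were chosen with earlier results of these data known. Named were the 12 largest rises and falls above the median level, every member of the ERBB and AP-2 lists, 4 members by adjusted p of each other list, and 6 rises and falls in other contrasts, and further list members named in the text were chosen after their values were seen. Alternatives changed the arrays, batch term, weights, moderation, probe set, level filter, normalization, threshold and replicate block. Figures used matplotlib.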

Additional observations from a re-analysis of the deposited data

Results flagged for a closer look

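The cetuximab response of HaCaT-EGFR differed from that of another line, by the test of the difference itself, in 5 genes for HaCaT-Mock, 429 for HaCaT-HRAS and 9 for HaCaT-PIK3CA. Against HaCaT-Mock the log2 differences were -2.55 for CXCL9, -2.31 for CXCL10, -1.58 for CXCL11, 0.73 for LGALSL and 0.55 for ELF4. Against HaCaT-PIK3CA they were -2.00 for CXCL9, -2.32 for CXCL10, -1.44 for CXCL11, -0.55 for KRT18, 2.14 for RPTN, 1.04 for PRUNE2, 0.95 for LRATD1, 0.85 for FYB1 and 0.55 for NRARP. Against HaCaT-HRAS the largest by the naming rule were 2.82 for KRT4, 2.68 for CYP4F3, 2.31 for IVL, 2.02 for KRT13, 1.87 for ALPP and 1.83 for AQP3 on one side, and -2.98 for DUSP6, -2.96 for ETV5, -2.70 for EGR1, -2.12 for FOSL1, -1.67 for NT5E and -1.63 for IL1A on the other. The groups of 2 and 3 arrays are too small for a test of single arrays.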

How the results depend on the processing

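Of 216 named genes 202 kept their side of the threshold in the cetuximab contrast when only batch J arrays were used, 12 lost the call, 2 gained it and none reversed. Cetuximab against PBS changed 2734 genes, and 4342 with HaCaT-EGFR arrays only, 966 with the 5 arrays alone, 1155 without a batch term, 1759 in batch J, 5423 with array weights and 233 at a log2 change of at least 1. The difference from HaCaT-Mock held in 229 genes with weights, 2 in batch J, 3 above the median level, 3 at a log2 change of at least 1 and 3 without a batch term. That from HaCaT-HRAS held in 2377, 111, 109 and 127 (weights, batch J, log2 change of at least 1, no batch term), and that from HaCaT-PIK3CA in 146, 5 and 4 (weights, log2 change of at least 1, no batch term). Cetuximab against gefitinib gave 2112 with HaCaT-EGFR arrays, 2941 with weights, 52 in batch J, 7 at a log2 change of at least 1 and 107 without a batch term, and against afatinib 3846, 4452, 379, 24 and 505 in that order. The scramble arrays gave 2657 with HaCaT-EGFR arrays, 223 at a log2 change of at least 1 and 404 without a batch term, and siEGFR gave 3448, 3984 (weights), 725 (batch J), 71 and 594.

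Some alternatives were chosen after seeing the data. Without the 4 arrays of lowest weight, none of them among the cetuximab and PBS arrays of HaCaT-EGFR, the counts were 4111 for PBS, 40 for HaCaT-Mock, 1337 for HaCaT-HRAS, 33 for HaCaT-PIK3CA, 1877 for gefitinib, 3533 for afatinib, 3017 for scramble and 3218 for siEGFR. Without the 3 gefitinib arrays of HaCaT-HRAS they were 8 for HaCaT-Mock, 19 for HaCaT-PIK3CA, 1177 for gefitinib and 2104 for scramble. Leaving out 1 array at a time gave 1385 to 2472 for PBS, 3 to 5 for HaCaT-Mock, 176 to 365 for HaCaT-HRAS, 6 to 10 for HaCaT-PIK3CA, 231 to 455 for gefitinib (231 without cetuximab replicate 3), 1154 to 1625 for afatinib (1154 without cetuximab replicate 3), 841 to 1000 for scramble and 1285 to 1449 for siEGFR. Other probe sets turned ERBB2 (-0.080), COL1A1 (1.06 by the largest interquartile range and by the rule of the study, 0.32 by the mean of all probe sets), DST (0.19) and BUB1 (0.092). Replicate numbers did not pair the arrays, and with a replicate block 4039 genes changed, against 4155 in the same batch J arrays of HaCaT-EGFR without it. The probe sets listed by the study were not run as an alternative, since the list was held in part. The cause of these shifts was not tested.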
